A study of Mus musculus with 23 samples.

Results

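The transcripts of 10 genes of leukocyte adhesion, 9 integrin subunits and the adhesion molecule gene Icam1, were followed in brain macrophages 1 day after stroke. The members were taken by symbol from a table of read counts that held 33280 genes. They were the α subunit genes Itgam, Itgax, Itgal, Itga4, Itga6 and Itga9, the β subunit genes Itgb1, Itgb2 and Itgb5, and Icam1. All 10 had a row in the table.

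Integrins are cell surface receptors made of 1 α and 1 β subunit, and both must be made for the receptor to reach the membrane. Those of leukocytes pair the β subunit encoded by Itgb2 (CD18) with the products of Itgal (LFA-1), Itgam (Mac-1, the microglial marker CD11b) or Itgax (CD11c), and bind ICAM-1 on the vessel wall or complement fragments on targets. The Itga4 product pairs with that of Itgb1 to form VLA-4, which binds VCAM-1 and fibronectin and lets monocytes and lymphocytes adhere to endothelium. The products of Itga6 and Itga9 also pair with that of Itgb1 and bind matrix proteins such as laminin and tenascin, whereas the Itgb5 product pairs with the αv subunit and binds vitronectin.

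All mice were Ccr2creERT2/+ R26tdT/tdT, in which tamoxifen marks cells with an active Ccr2 gene, a monocyte receptor gene, and their descendants with the red protein tdT, so that tdT reports Ccr2 activity at the time of the pulse rather than a cell type. BLZ945, which blocks the CSF-1 receptor and thereby removes brain macrophages, was given by gavage at 200 mg/kg on 7 days, and controls (CTL) received vehicle. Tamoxifen (2 mg per day) was injected on the last day of gavage and 2 and 4 days after it, a clot was induced in the middle cerebral artery with thrombin 8 weeks after gavage, and brain slices without choroid plexus were collected 1 day later. Libraries were made from CD206- microglia (MG) of CTL (n = 5) and BLZ945 mice (n = 5), and from CD206+ subdural CNS-associated macrophages (sdCAMs), sorted as tdT- cells of CTL (n = 5) and BLZ945 mice (n = 5) and as tdT+ cells of BLZ945 mice (n = 3). All 5 groups had a stroke, and the ages of the mice were not given in the labels. By the numbers in the library names, each CTL library held 1 animal, and the BLZ945 libraries held 2 pooled animals apart from those named F2, which carry 1 number. The study states that each BLZ945 replicate was a pool of 2 mice, so the number of animals in F2 is uncertain. Pooling thus went largely or wholly with treatment. Letters F and M with a number name the libraries, and within a treatment a shared name means the same animal or pool. The number of 1 animal stands in the names of both the F2 and the M1 libraries of BLZ945.

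The sort itself used the proteins of 2 of the 10 genes. Cells had to be positive for CD45, which blood-derived cells and microglia carry and astrocytes, neurons and fibroblasts lack, and for CD11b, the product of Itgam, and per the methods of the study negative for CD11c, the product of Itgax. The same gate left out cells with Ly6C or Ly6G, proteins of classical monocytes and neutrophils. Levels of these transcripts therefore describe cells already chosen by the proteins, and a low Itgax in any group has to be read with that gate.

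Total counts per library lay between 9433960 and 13276081. Levels are given as CPM, a count as a share of its library total on the usual scale, adjusted with TMM factors. A floor of 3 counts, below which a level cannot be separated from 0, lay at 0.230 to 0.331 CPM in these libraries and covers counting error only because amplified reads are not independent molecules. The labelled cell types were borne out by their markers. Summed over Mrc1, Lyve1, Cd163, Pf4 and Ms4a7, sdCAM markers reached 8244 to 14275 CPM in sdCAM libraries and 9.85 to 47.5 CPM in MG, while P2ry12, Tmem119, Sall1 and Siglech together reached 6346 to 11120 CPM in MG and 484 to 1055 CPM in sdCAMs. The tdT- BLZ945 library F1 stood apart in its other blood cell markers, with sums of 217 CPM for 5 monocyte genes and 74.1 CPM for 6 neutrophil genes against at most 100 and 3.07 CPM in the other 4 libraries of its group. All 5 monocyte genes were above 0 in F1, but only 1 of the 6 neutrophil genes was, so the neutrophil sum rests on that gene.

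The genes lie on 6 chromosomes of the mouse build GRCm38 (GENCODE M21), all on the plus strand. Itgam (chr7:128062640-128118491), Itgax (chr7:128129547-128150657) and Itgal (chr7:127296260-127335138) sit together on chromosome 7, and Itga4 (chr2:79255426-79333123) and Itga6 (chr2:71745616-71858416) on chromosome 2. Itga9 (chr9:118606690-118901003) and Icam1 (chr9:21015985-21028817) lie on chromosome 9, and Itgb1, Itgb2 and Itgb5 on chromosomes 8, 10 and 16. Exons of Itgam share 3450 bases with the gene model Gm49368 on the same strand, those of Itga4 share 1124 bases with Cerkl on the other strand, and those of Icam1 share 511 bases with an antisense model. The use of strand in the counting was not given in the sources used here, so reads of these neighbours cannot be told apart from those of the 3 genes.

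Promoters of 4 members are shown, those that differed between tdT- sdCAMs and MG in both treatments, in either direction, and had a RefSeq entry. Each sequence is the 250 bases upstream of the RefSeq start (GRCm38.p6, plus strand, 5′ to 3′), and capitals mark 3 motifs searched on both strands, namely GAGGAA (a core of sites for PU.1, the master factor of macrophages), GGGCGG (the GC box of Sp1) and GGAAATTCC (a form of the NF-κB site).
Itgam, chr7:128062390-128062639: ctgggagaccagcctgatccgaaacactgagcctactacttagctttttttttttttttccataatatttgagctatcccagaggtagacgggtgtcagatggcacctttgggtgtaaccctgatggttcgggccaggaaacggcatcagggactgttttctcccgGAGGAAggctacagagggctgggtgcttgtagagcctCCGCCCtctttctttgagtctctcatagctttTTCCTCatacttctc
Itga4, chr2:79255176-79255425: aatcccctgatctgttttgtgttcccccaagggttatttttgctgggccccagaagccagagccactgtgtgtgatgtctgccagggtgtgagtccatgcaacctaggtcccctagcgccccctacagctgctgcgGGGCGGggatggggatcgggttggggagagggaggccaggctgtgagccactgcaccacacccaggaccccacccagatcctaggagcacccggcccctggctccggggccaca
Itgb5, chr16:33829415-33829664: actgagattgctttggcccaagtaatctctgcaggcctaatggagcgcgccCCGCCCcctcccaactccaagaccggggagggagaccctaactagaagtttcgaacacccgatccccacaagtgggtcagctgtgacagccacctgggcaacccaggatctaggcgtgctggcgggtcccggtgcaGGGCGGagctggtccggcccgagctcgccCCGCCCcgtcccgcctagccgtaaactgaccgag
Icam1, chr9:21015690-21015939: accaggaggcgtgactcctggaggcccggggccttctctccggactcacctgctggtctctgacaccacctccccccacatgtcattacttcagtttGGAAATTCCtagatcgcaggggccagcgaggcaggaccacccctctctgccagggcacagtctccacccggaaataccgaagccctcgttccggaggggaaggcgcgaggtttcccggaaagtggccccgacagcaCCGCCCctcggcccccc

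The Itgam window held 2 matches of GAGGAA and 1 of GGGCGG, that of Itga4 held 1 of GGGCGG, that of Itgb5 held 3 of GGGCGG, and that of Icam1 held 1 of GGGCGG and 1 of GGAAATTCC. Of 32851 RefSeq windows of this length, 23.3% held GAGGAA, 32.7% held GGGCGG and 0.286% held GGAAATTCC. RefSeq windows were found for 7 of the 10 members. These matches describe letters in the windows only, and binding was not measured.

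Within MG the β subunit genes were the most abundant members. Per kilobase of exon, a scale that allows genes to be compared and that rests on an annotation other than the authors' own, MG CTL held 401 CPM of Itgb5, 172 CPM of Itgb2 and 91.1 CPM of Itgb1. The α subunit genes followed with 58.9 CPM per kilobase of Itgam, 24.4 of Itga6, 5.57 of Itga9 and 2.47 of Itgax, and Icam1 stood at 40.9. In tdT- CTL sdCAMs the 3 β subunit genes lay close together on this scale, at 116 CPM per kilobase for Itgb2, 111 for Itgb1 and 92.3 for Itgb5, above Itgam at 27.8 and Itga4 at 2.69.

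**Figure D1:**
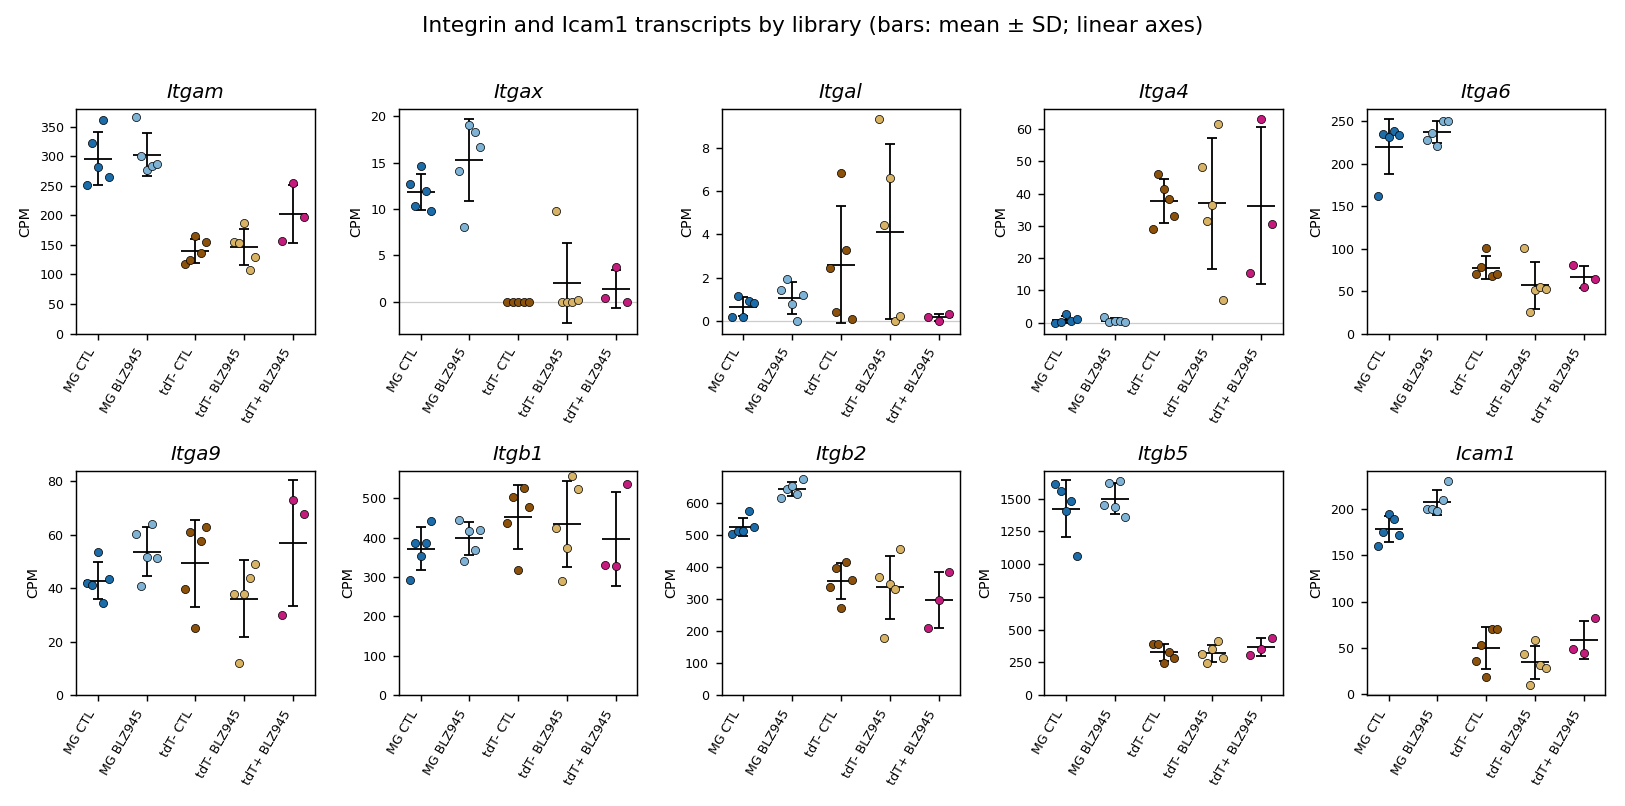
Level of the 10 members in every library, in CPM on linear axes, by group (MG CTL, MG BLZ945, tdT- CTL, tdT- BLZ945, tdT+ BLZ945), where points are libraries and bars give the mean and SD. Itgb5 stands at 1060 to 1634 CPM in MG and at 242 to 439 CPM in sdCAMs, Itga4 stands at 7.06 CPM or more in every sdCAM library and at 2.73 CPM or less in every MG library, and Itgb1 overlaps in all groups.

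The first comparison set sdCAMs against MG of the same mice, in CTL and in BLZ945 animals. In CTL mice, 7 of the 10 members differed, 1 higher (Itga4) and 6 lower (Itgam, Itgax, Itga6, Itgb2, Itgb5 and Icam1) in tdT- sdCAMs, by edgeR's quasi-likelihood test at an adjusted p-value under 0.05. This share is read against 25.6% of all 12697 genes called in that comparison, 15.3% higher and 10.3% lower. The 10 genes were chosen with earlier results of these data known, so here and below a share above the background is descriptive only. The median log2 fold change of the members was -0.83 (unchanged with Itgax set to its bound below) beside -0.01 over all genes tested. The groups did not overlap for 7 of 10 members against 26.8% of all genes. P-values here measure the spread between libraries, and in such bulk samples fewer cells of a type and less RNA per cell cannot be told apart.

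In BLZ945 mice, 6 of the 10 members passed the test for tdT- sdCAMs against MG (1 up, 5 down), against a background of 32.4% of genes called (18.3% higher and 14.1% lower). The median of the members was -0.98 beside -0.02 over all genes tested, and 6 members did not overlap, against 22% of all genes. In tdT+ sdCAMs 5 of the 10 differed from MG BLZ945, 1 higher and 4 lower, against 18.9% of 12868 genes (11.8% higher and 7.05% lower), with a median of -1.46 beside -0.01. In that comparison 7 members did not overlap, against 34.8% of all genes. Both BLZ945 comparisons used the same MG libraries and so are not independent of each other.

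Marker sums of 4 other cell types were also higher in sdCAMs than in MG, without overlap in any of the 3 comparisons. In CTL mice they stood at 223 to 782 CPM in tdT- against 3.19 to 9.80 CPM in MG for 6 dendritic cell genes, 47.1 to 244 CPM against 3.31 to 6.66 CPM for 3 astrocyte genes, 42.1 to 86.5 CPM against 4.18 to 9.14 CPM for 3 neuron genes and 21.05 to 27.1 CPM against 0.153 to 1.83 CPM for 4 fibroblast genes. In BLZ945 mice the dendritic cell genes summed to 30.9 to 199.5 CPM in tdT-, 34.7 to 84.5 CPM in tdT+ and 2.46 to 6.76 CPM in MG, and the astrocyte genes to 28.8 to 173 CPM, 24.7 to 47.2 CPM and 0.848 to 5.52 CPM. Of the dendritic cell genes, Xcr1 had 0 counts in every sdCAM library, and Clec9a and Ccr7 had 0 counts in every tdT+ library. The neuron genes summed to 36.001 to 102 CPM in tdT-, 47.8 to 108 CPM in tdT+ and 4.32 to 12.0 CPM in MG of these mice, and the fibroblast genes to 15.1 to 57.2 CPM, 17.2 to 22.9 CPM and 0.170 to 2.21 CPM. A sum of 4 B cell genes was higher without overlap only in tdT+ sdCAMs, at 11.3 to 52.5 CPM against 3.003 to 9.69 CPM in MG BLZ945. It was 0 to 6.27 CPM in tdT- BLZ945. Cells were sorted on CD45 and CD11b, and the part of these cell types in the differences of Itga4, Itgb5, Icam1, Itga6, Itgb2, Itgam and Itgax between sdCAMs and MG was not tested.

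Itga4, the α subunit of VLA-4, was the member that was higher in sdCAMs. MG CTL libraries held 0, 0.174, 2.73, 0.424 and 1.23 CPM of Itga4 (F1, F2, F3, M1, M2) and MG BLZ945 libraries 1.82, 0.0835, 0.509, 0.530 and 0.0848 CPM. In tdT- CTL the 5 libraries held 29.1, 46.2, 41.5, 38.3 and 33.0 CPM, in tdT- BLZ945 48.1, 31.4, 36.5, 61.7 and 7.06 CPM, and in tdT+ BLZ945 15.2, 63.0 and 30.6 CPM (F2, F3, M2). Every sdCAM library was above every MG library, and within sdCAMs the library M2 of tdT- BLZ945 was the lowest.

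The log2 fold change of Itga4 was 5.34 ± 0.80 (SE) in CTL mice (edgeR adjusted p = 2.33e-05), 5.96 ± 0.84 for tdT- BLZ945 (adjusted p = 9.7e-06) and 5.93 ± 0.85 for tdT+ BLZ945 (adjusted p = 0.000145). The MG levels behind these folds were near the floor, so the size of the fold is less certain than its direction. Itgb1, which encodes the β partner of VLA-4, was present throughout. Its means were 372 ± 54.1 (SD, n = 5) CPM in MG CTL and 452 ± 81.8 (SD, n = 5) CPM in tdT- CTL, a log2 difference of 0.28 ± 0.16 that did not pass the test (edgeR adjusted p = 0.247). In BLZ945 mice the difference of Itgb1 between tdT- sdCAMs and MG was 0.13 ± 0.16 (edgeR adjusted p = 0.57). Of the 2 genes of VLA-4, the α gene thus passed the test between the populations and the β gene did not. The summed monocyte markers (Ly6c2, Ccr2, Plac8, Chil3 and Vcan) were 7.21 to 26.9 CPM in tdT- CTL and 7.50 to 17.2 CPM in MG CTL. In BLZ945 mice these sums were 3.73 to 14.3 CPM in MG, 217, 22.8, 9.58, 100 and 0 CPM in tdT- (F1, F2, F3, M1, M2) and 8.30, 45.7 and 15.1 CPM in tdT+ sdCAMs (F2, F3, M2). The tdT- BLZ945 library with the lowest Itga4, M2, thus had the lowest sum, that with the highest Itga4, M1, had the next to highest, and F3 was the highest of the tdT+ libraries for both. In tdT- CTL the library with the highest Itga4, F2 (46.2 CPM), had the lowest sum (7.21 CPM), and F1, with the lowest Itga4, had the next to lowest. The sums of M1 in tdT- BLZ945 and of F3 in tdT+ came from 2 of the 5 genes. The part of monocytes in the Itga4 difference was not tested.

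Itgb5, the β partner of the αv subunit, had the highest level of the members in MG. MG CTL libraries held 1614, 1558, 1406, 1481 and 1060 CPM and MG BLZ945 libraries 1450, 1616, 1436, 1634 and 1360 CPM. The sdCAM libraries held 392, 387, 243, 333 and 284 CPM in tdT- CTL, 312, 242, 354, 412 and 284 CPM in tdT- BLZ945, and 308, 352 and 439 CPM in tdT+ BLZ945. No sdCAM library came near the lowest MG library. The log2 fold change was -2.12 ± 0.16 in CTL mice (edgeR adjusted p = 8.92e-10), -2.22 ± 0.16 for tdT- BLZ945 (adjusted p = 5.24e-10) and -2.02 ± 0.19 for tdT+ BLZ945 (adjusted p = 1.74e-06).

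Icam1, an endothelial and leukocyte ligand of the Itgb2 integrins that macrophages also express, was lower in sdCAMs. It stood at 160, 176, 194, 189 and 172 CPM in MG CTL and at 36.6, 53.4, 18.3, 71.1 and 70.7 CPM in tdT- CTL. In BLZ945 mice it stood at 200, 201, 198, 210 and 230 CPM in MG, at 43.5, 10.2, 58.2, 31.9 and 28.5 CPM in tdT- and at 48.5, 45.2 and 82.6 CPM in tdT+ sdCAMs. All MG values were at least 160 CPM and all sdCAM values at most 82.6 CPM. The log2 fold change was -1.83 ± 0.33 in CTL mice (edgeR adjusted p = 0.000213), -2.58 ± 0.34 for tdT- BLZ945 (adjusted p = 4.66e-06) and -1.81 ± 0.40 for tdT+ BLZ945 (adjusted p = 0.00521).

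Itga6, a laminin receptor subunit, ranged from 162 to 251 CPM in the 10 MG libraries and from 24.9 to 101 CPM in the 13 sdCAM libraries. The populations did not overlap. Its log2 fold change was -1.51 ± 0.23 in CTL mice (edgeR adjusted p = 2.7e-05), -2.05 ± 0.23 for tdT- BLZ945 (adjusted p = 6.16e-07) and -1.82 ± 0.33 for tdT+ BLZ945 (adjusted p = 0.00108). Itga9, which like Itga6 pairs with Itgb1, overlapped between the populations. It stood at 34.6 to 64.0 CPM in MG and at 12.0 to 73.0 CPM in sdCAMs, and its log2 differences between tdT- sdCAMs and MG were 0.20 ± 0.29 in CTL (edgeR adjusted p = 0.691) and -0.56 ± 0.29 in BLZ945 mice (adjusted p = 0.146). Within pairs from the same animal or pool, Itga9 was lower in tdT- sdCAMs in 5 of 5 pairs of BLZ945 mice and in 2 of 5 pairs of CTL mice.

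Of the β2 family, by which leukocytes bind ICAM-1 and complement, the β gene Itgb2 was lower than in MG in all 3 sdCAM groups, whereas the α genes passed the test only in part, Itgam in both tdT- groups, Itgax in tdT- CTL and Itgal in none. Itgb2 libraries held 503, 510, 512, 573 and 523 CPM in MG CTL and 338, 397, 270.7, 413 and 358 CPM in tdT- CTL. They held 614, 643, 651, 628 and 674 CPM in MG BLZ945, 367, 179, 346, 331 and 454 CPM in tdT- BLZ945 and 209, 296 and 382 CPM in tdT+ BLZ945. The populations did not overlap within either treatment, although the difference was smaller than for Itgb5. The log2 fold change was -0.56 ± 0.17 in CTL mice (edgeR adjusted p = 0.0139), -0.92 ± 0.17 for tdT- BLZ945 (adjusted p = 0.000183) and -1.11 ± 0.25 for tdT+ BLZ945 (adjusted p = 0.00642).

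Itgam, which encodes CD11b, stood at 250.4, 322, 282.3, 361 and 264 CPM in MG CTL and at 118, 125, 166, 137 and 154 CPM in tdT- CTL. In BLZ945 mice the libraries held 367, 301, 277, 282.6 and 287 CPM in MG, 154, 154, 188, 107 and 129 CPM in tdT- and 157, 254 and 197 CPM in tdT+ sdCAMs. The tdT- sdCAM values lay below all MG values, and F3 of tdT+ lay within the range of MG CTL. The log2 fold change was -1.09 ± 0.15 in CTL mice (edgeR adjusted p = 5.13e-06) and -1.04 ± 0.14 for tdT- BLZ945 (adjusted p = 9.02e-06).

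For tdT+ BLZ945 against MG BLZ945 the log2 difference of Itgam was -0.57 ± 0.20, which did not pass the test (edgeR adjusted p = 0.0571). The groups did not overlap, and Itgam was lower in 3 of 3 paired samples. With the animal or pool as a replicate block the difference was -0.62 ± 0.18 (edgeR adjusted p = 0.0424), and without library F3 of tdT+ it was -0.77 ± 0.22 (adjusted p = 0.0271). Over the 15 alternatives run, the adjusted p-value ranged from 0.0203 to 0.229.

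Itgax, which encodes CD11c, had counts in every MG library and in few sdCAM libraries. Its MG libraries held 12.7, 10.4, 14.6, 12.0 and 9.73 CPM in CTL and 14.1, 8.10, 19.0, 18.3 and 16.7 CPM in BLZ945. All 5 tdT- CTL libraries had 0 counts, so Itgax was at least 39.4-fold lower there than the MG CTL mean, computed with 3 counts per library as the floor (edgeR adjusted p = 0.000496). Genes of dendritic cells, which are known for CD11c, summed to 223 to 782 CPM in those libraries, over Flt3, Zbtb46, Cd209a, Xcr1, Clec9a and Ccr7, with Xcr1 at 0. Of these 6 genes, 5, 4, 4, 3 and 3 were above 0 (F1, F2, F3, M1, M2), so the sums do not rest on the whole list.

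In tdT- BLZ945 the libraries held 9.75, 0, 0, 0 and 0.221 CPM of Itgax, and in tdT+ BLZ945 0.386, 3.76 and 0 CPM. A single tdT- library, F1 with 91 counts, and a single tdT+ library, F3 with 38 counts, held nearly all of these reads. For tdT- BLZ945 against MG BLZ945 the log2 difference was -2.92 ± 1.14 and did not pass the test (edgeR adjusted p = 0.0584), but it passed with the animal or pool as a replicate block (-6.41 ± 1.59, adjusted p = 0.0153) and without F1 (-7.92 ± 0.81, adjusted p = 1.16e-06). Itgax was lower in tdT- sdCAMs than in MG in 5 of 5 pairs of libraries from the same pool. F1 was also the library with the highest monocyte, neutrophil and T and NK cell marker sums (217, 74.1 and 11.4 CPM) of its group. The neutrophil sum came from 1 of its 6 genes. Cells with Ly6C or Ly6G were left out by the gate named above. The part of these cell types in the Itgax value of F1 was not tested. For tdT+ against MG BLZ945 the log2 difference was -3.44 ± 1.89 (edgeR adjusted p = 0.236), with no overlap of the libraries.

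Itgal, the α subunit of LFA-1, was at or near the floor in MG, at 0.170 to 1.13 CPM in CTL and 0 to 1.92 CPM in BLZ945 libraries. It stood at 2.44, 0.388, 6.82, 3.26 and 0.0811 CPM in tdT- CTL, at 9.32, 4.43, 6.60, 0 and 0.221 CPM in tdT- BLZ945 and at 0.193, 0 and 0.300 CPM in tdT+ BLZ945. The spread within the tdT- groups was as wide as their range, and all groups overlapped. The log2 differences of tdT- sdCAMs from MG were 1.96 ± 1.20 in CTL (edgeR adjusted p = 0.267) and 1.96 ± 1.19 in BLZ945 mice (adjusted p = 0.223), and that of tdT+ sdCAMs was -2.59 ± 1.73 (adjusted p = 0.337).

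**Figure D2:**
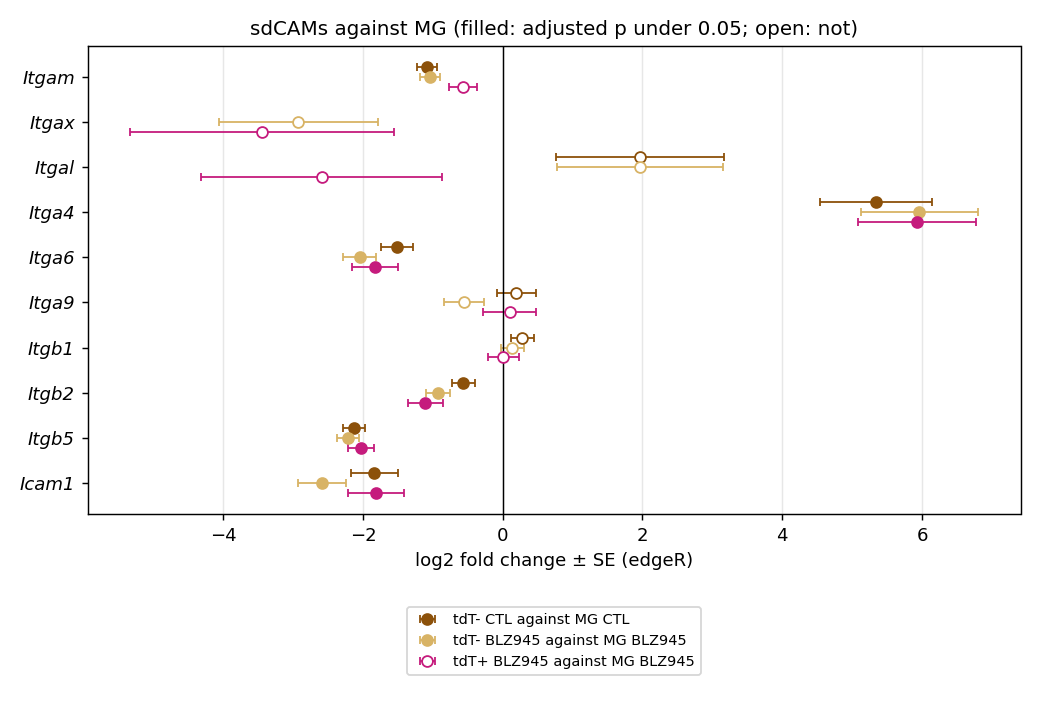
Log2 fold change with SE (edgeR) of each member in sdCAMs against MG, one colour for each sdCAM group, with filled points at an adjusted p-value under 0.05. Itga4 lies to the right of 0 in all 3 comparisons (5.34, 5.96 and 5.93) and Itga6, Itgb2, Itgb5 and Icam1 to the left, while Itgax in CTL mice is not drawn because it had 0 counts in tdT- CTL.

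A second set of comparisons asked whether BLZ945 treatment 8 weeks earlier left a difference within a population. In MG, 9 members were tested (Itga4 did not pass the filter on low counts), and none of the 9 was called, against 0.408% of 11264 genes. Of the 9, 2 had an unadjusted p-value under 0.05, Itgb2 and Icam1, against 13.2% of all genes, and these were also the 2 whose groups did not overlap, against 3.09% of all genes. All 9 fitted log2 fold changes lay above 0 (7 to 9 of them when any 1 library was left out), with a median of 0.20 beside 0.0002 over all genes tested.

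The Itgb2 libraries of MG BLZ945 (614 to 674 CPM) all lay above those of MG CTL (503 to 573 CPM), with means of 642 ± 22.9 (SD, n = 5) and 524 ± 28.5 (SD, n = 5) CPM. The log2 fold change was 0.28 ± 0.08, with an adjusted p-value of 0.171 in edgeR, 0.0286 in DESeq2 and 1 in an edgeR model of all 23 libraries. Icam1 had means of 178 ± 13.8 CPM in MG CTL and 208 ± 13.5 CPM in MG BLZ945 (SD, n = 5 each), with no overlap, and its log2 difference of 0.20 ± 0.09 did not pass the test (edgeR adjusted p = 0.362). Between the same MG libraries the sum of 4 B cell markers, almost all of it Cd79b, fell from 30.9 to 49.2 CPM in CTL to 3.003 to 9.69 CPM in BLZ945 (Cd79b, -2.33 ± 0.25, edgeR adjusted p = 0.000477), and its part in the differences of Itgb2 and Icam1 was not tested. For Itga9 the log2 difference was 0.31 ± 0.15 (edgeR adjusted p = 0.381), and for Itgax it was 0.35 ± 0.23 (adjusted p = 0.565).

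In tdT- sdCAMs 9 members were tested between BLZ945 and CTL (Itgax did not pass the filter), and 0 were called, against 0% of 13076 genes. edgeR called no gene in this comparison at an adjusted p-value under 0.05, whereas 697 genes had an unadjusted p-value under 0.05 and DESeq2 called 63. No member had an unadjusted p-value under 0.05, and none was without overlap, against 1.84% of all genes. The members' median log2 fold change was -0.04 beside -0.001. Fitted differences of the more abundant members with some size were -0.52 ± 0.42 for Icam1, -0.43 ± 0.37 for Itga9 and -0.42 ± 0.28 for Itga6 (edgeR adjusted p = 0.998 for each). Marker sums of other cell types were lower in tdT- BLZ945 than in tdT- CTL without overlap, at 0 to 6.27 CPM against 24.8 to 38.7 CPM for the 4 B cell genes and 30.9 to 199.5 CPM against 223 to 782 CPM for the 6 dendritic cell genes, and their part was not tested.

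The spread between libraries was wider in sdCAMs. Over the 7 members with a mean of at least 10 CPM in every group (all but Itgax, Itgal and Itga4), the median coefficient of variation was 14.9% in MG CTL, 8.02% in MG BLZ945, 18.1% in tdT- cells of CTL mice, and 29.6% and 29.4% in tdT- and tdT+ cells of BLZ945 mice. In tdT- BLZ945 the library F2 was the lowest of its group for 6 of the 10 members, among them Itgb2 (179 CPM), Icam1 (10.2 CPM), Itga6 (24.9 CPM) and Itga9 (12.0 CPM). Other groups also had such a library. F1 of MG CTL was the lowest for 6 members, and F3 of tdT- CTL and F2 of tdT+ BLZ945 for 5 each.

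An interaction term tested if treatment acted differently on the 2 populations, tdT- sdCAMs and MG. None of the 10 members was called, against 0.0394% of 12697 genes. Itgax had an unadjusted p-value of 0.00462 (edgeR adjusted p = 0.326), with a group at 0 counts, and without the tdT- BLZ945 library F1 its p-value in that edgeR model was 0.0773. The next smallest were Itga9 (-0.76 ± 0.40, edgeR adjusted p = 0.628), Itga6 (-0.53 ± 0.32, adjusted p = 0.68), Icam1 (-0.75 ± 0.46, adjusted p = 0.692) and Itgb2 (-0.36 ± 0.23, adjusted p = 0.713), given as log2 differences of the effects.

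The last set asked whether sdCAMs of CCR2+ descent (tdT+) differed from tdT- sdCAMs. Against tdT- BLZ945, from the same pools, none of 9 members tested was called, against 0.206% of 13076 genes, and none was without overlap, against 3.4% of all genes. Itgam was higher by 0.45 ± 0.20 on the log2 scale, with means of 202 ± 48.7 (SD, n = 3) and 146 ± 30.3 (SD, n = 5) CPM, and did not pass the test (edgeR adjusted p = 0.702). The sum of the 4 B cell markers was 11.3 to 52.5 CPM in tdT+ and 0 to 6.27 CPM in tdT- libraries, and its part was not tested. Itgal was at most 0.300 CPM in tdT+ libraries and reached 9.32 CPM in tdT- libraries, but 2 tdT- libraries were as low, and the log2 difference of -4.56 ± 1.92 did not pass the test (edgeR adjusted p = 0.671). Icam1 (0.75 ± 0.48, edgeR adjusted p = 0.846) and Itga9 (0.64 ± 0.42, adjusted p = 0.86) had higher fitted values in tdT+ cells. Within pairs from the same animal or pool, Itgam, Itga6 and Itga9 were higher in tdT+ cells in 3 of 3 pairs, and every other member went both ways. Itga4 did not separate the groups, since its means were 36.3 ± 24.4 (SD, n = 3) CPM in tdT+ and 36.9 ± 20.4 (SD, n = 5) CPM in tdT- BLZ945 sdCAMs.

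Against tdT- CTL, tdT+ BLZ945 sdCAMs likewise had none of 9 members called, against 0.283% of 13076 genes, and none without overlap, against 8.16% of all genes. Itgam was higher by 0.54 ± 0.20 on the log2 scale (edgeR adjusted p = 0.561), and Itgal lower by a fitted value of -3.89 ± 1.86 (adjusted p = 0.679). The dendritic cell sum was 34.7 to 84.5 CPM in tdT+ BLZ945 and 223 to 782 CPM in tdT- CTL, without overlap, and its part was not tested. The tdT+ libraries served in both comparisons. With 3 tdT+ libraries of such spread, a difference that was not called is not shown to be absent.

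**Figure D3:**
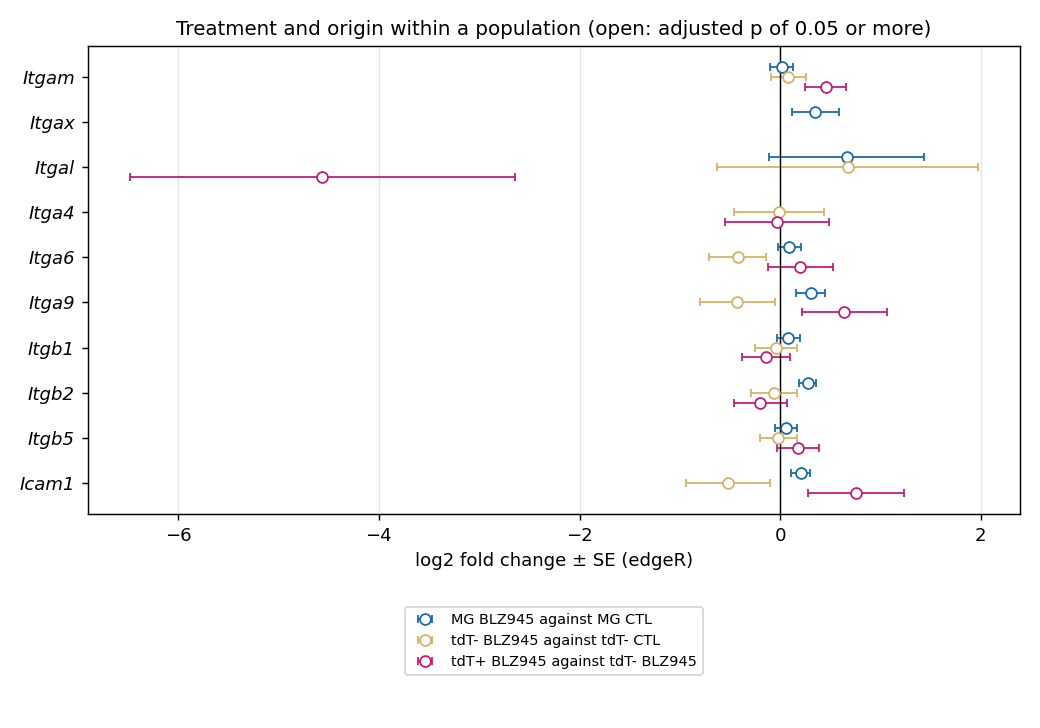
Log2 fold change with SE (edgeR) of each member for BLZ945 against CTL in MG and in tdT- sdCAMs and for tdT+ against tdT- sdCAMs of BLZ945 mice. All points are open, since no adjusted p-value was under 0.05, and the widest bar belongs to Itgal (-4.56 ± 1.92).

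Mean levels over the 5 groups gave each member an order. Itgam, Itgax, Itga6, Itgb2, Itgb5 and Icam1 had both MG groups on top. Itga4 had the 3 sdCAM groups on top, in an order that differed between mean CPM and mean log2(CPM + 1), Itgal had both tdT- groups on top, and Itga9 and Itgb1 mixed the populations. Neighbours in the order were separate, with no shared range, between MG CTL and the highest sdCAM group for Itga6, Itgb2, Itgb5 and Icam1, between the lowest sdCAM group and MG CTL for Itga4, and between MG BLZ945 and MG CTL for Itgb2 and Icam1. All other neighbours overlapped.

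Genes with a profile over the 23 libraries most like that of a member were sought for the 5 members whose group means spanned at least 2 log2 units, by the root mean square difference of centred log2(CPM + 1). For Itga4 these were Spic (0.59), a transcription factor gene of iron-recycling macrophages, and Il10 (0.61), an anti-inflammatory cytokine gene. For Itgax they were Bcl2a1a (0.73) and E2f2 (0.75), for Itga6 Snx18 (0.27) and Fam91a1 (0.32), for Itgb5 Ywhah (0.25) and Mfng (0.28), and for Icam1 Tmem184b (0.40) and Iffo1 (0.41). Spic stood at 35.9 ± 16.5 (SD, n = 5) CPM in tdT- CTL and at 0.273 ± 0.563 CPM in MG CTL.

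Other genes of the pathway were described from 3 lists. Of 17 other integrin subunit genes, 7 were tested in CTL mice and 0 were higher and 4 lower in tdT- sdCAMs than in MG. The count was 0 and 4 of 7 for tdT- BLZ945 and 0 and 3 of 9 for tdT+ BLZ945, and the medians were -1.72, -1.71 and -1.77 on the log2 scale. The 4 lower in CTL were Itgav, Itga5, Itgb3 and Itgae, of which all but Itgb3 are named here after their values were seen. Itgae, an integrin gene of epithelial T cells, was low, at 0.426 to 4.60 CPM in MG CTL, and had 0 CPM in all tdT- CTL libraries. Itgav, the α partner of Itgb5, had a log2 fold change of -1.78 ± 0.30 (edgeR adjusted p = 8.27e-05), and was thus lower, as was its partner. Itgb3, which encodes another β partner of αv and is a platelet and osteoclast integrin gene, was at 20.9 to 34.9 CPM in MG CTL and at most 0.505 CPM in tdT- CTL (-6.70 ± 1.08, edgeR adjusted p = 5.45e-05). In tdT- BLZ945 it stood at 0.964, 0.433, 0.0904, 13.4 and 0 CPM, so that M1, with 137 counts, was far above the other sdCAM libraries (-3.55 ± 0.88 against MG BLZ945, edgeR adjusted p = 0.00368). It had 0 counts in all 3 tdT+ libraries, at least 117-fold below the MG BLZ945 mean at 3 counts per library (edgeR adjusted p = 0.00548). Itga5, the fibronectin receptor subunit, was lower by a log2 value of -1.72 ± 0.42 in CTL mice (edgeR adjusted p = 0.00412).

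The second list held ligands, counter-receptors and related adhesion genes, of which 21 were tested between the populations. In CTL mice 6 were higher and 5 lower in tdT- sdCAMs, in BLZ945 mice 6 and 7, and for tdT+ sdCAMs 5 and 5. Over all genes the shares called higher and lower were 15.3% and 10.3%, 18.3% and 14.1%, and 11.8% and 7.05% in the same order, and these are also the background of the other lists. Vcam1, the ligand of VLA-4, was at 12.1 to 69.4 CPM in MG CTL and at 1093 to 2138 CPM in tdT- CTL, with a log2 fold change of 5.76 ± 0.41 (edgeR adjusted p = 4.63e-10). Both the α subunit gene of VLA-4 and the gene of its ligand were thus higher in sdCAMs than in MG. Jaml, a junctional adhesion molecule-like gene of leukocytes, was at most 1.00 CPM in MG and was higher in sdCAMs of all 3 groups, by log2 values of 6.71 ± 0.90 (tdT- CTL, edgeR adjusted p = 5.76e-06), 6.61 ± 0.84 (tdT- BLZ945, adjusted p = 2.66e-06) and 8.82 ± 0.79 (tdT+ BLZ945, adjusted p = 1.15e-06). Vtn, the vitronectin gene, was higher in tdT- BLZ945 (4.32 ± 0.60, adjusted p = 9.04e-06) and in tdT+ BLZ945 (3.51 ± 0.70, adjusted p = 0.00257).

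Among the genes that fell, Selplg, the selectin ligand PSGL-1, was at 1352 to 2705 CPM in MG and at 56.0 to 175 CPM in sdCAMs, with a log2 fold change of -4.24 ± 0.26 for tdT- BLZ945 (edgeR adjusted p = 4.16e-11) and -4.16 ± 0.33 for tdT+ BLZ945 (adjusted p = 3.08e-07). The junctional adhesion molecule gene Jam2 fell by a log2 value of -5.42 ± 0.87 in CTL (adjusted p = 5.3e-05), -5.90 ± 0.91 in tdT- BLZ945 (adjusted p = 2.99e-05) and -4.73 ± 1.22 in tdT+ BLZ945 (adjusted p = 0.013). F11r, which encodes JAM-A, fell by -4.31 ± 0.37 in tdT- BLZ945 (adjusted p = 9.14e-09).

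Within a population few genes of this list were called, 1 of 19 tested in MG BLZ945 against MG CTL (0.408% of all genes), 1 of 23 in tdT+ BLZ945 against tdT- CTL (0.283%) and 0 of 23 in each of the other comparisons of sdCAMs. Fn1, the fibronectin gene, was at 2.39 to 21.9 CPM in MG CTL and at 31.0 to 79.6 CPM in MG BLZ945 (2.30 ± 0.39, edgeR adjusted p = 0.0124), and no library overlapped. Between these libraries the sum of the 4 B cell markers fell from 30.9 to 49.2 CPM to 3.003 to 9.69 CPM, and its part in the Fn1 difference was not tested. Jaml was at 6.33 to 25.6 CPM in tdT- CTL and at 166, 319 and 73.6 CPM in tdT+ BLZ945 (3.74 ± 0.61, edgeR adjusted p = 0.00968), also with no overlap. These groups differ in both treatment and tdT status, and the dendritic cell sum was 34.7 to 84.5 CPM in tdT+ BLZ945 against 223 to 782 CPM in tdT- CTL, whose part was not tested. In tdT- BLZ945 Jaml stood at 55.3, 53.2, 61.3, 19.1 and 10.5 CPM, below all tdT+ libraries and overlapping tdT- CTL, and neither its difference from tdT- CTL (1.53 ± 0.53, edgeR adjusted p = 0.719) nor that of tdT+ from it (2.21 ± 0.58, adjusted p = 0.313) passed the test.

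A further list held 27 adaptor and signalling genes that link integrins to the cytoskeleton or switch them on, of which 23 were tested between the populations. They moved both ways, with 6 higher and 5 lower in CTL, 6 and 5 in tdT- BLZ945 and 3 and 3 in tdT+ BLZ945 sdCAMs, and their medians (0.06, 0.13 and 0.03) were close to those of all genes. Among those with an average log2 CPM of at least 3, the largest rise and fall in CTL were those of Ptk2, the focal adhesion kinase gene (2.11 ± 0.59, edgeR adjusted p = 0.0106), and of Parvg, a parvin gene of blood cells (-4.58 ± 0.88, adjusted p = 0.000415). Rasgrp2, an exchange factor gene for Rap1 that lies below this level and was chosen after its values were seen, rose more, from 0.256 to 1.00 CPM in MG CTL to 6.82 to 17.0 CPM in tdT- CTL (4.17 ± 0.63, edgeR adjusted p = 2.42e-05).

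**Figure D4:**
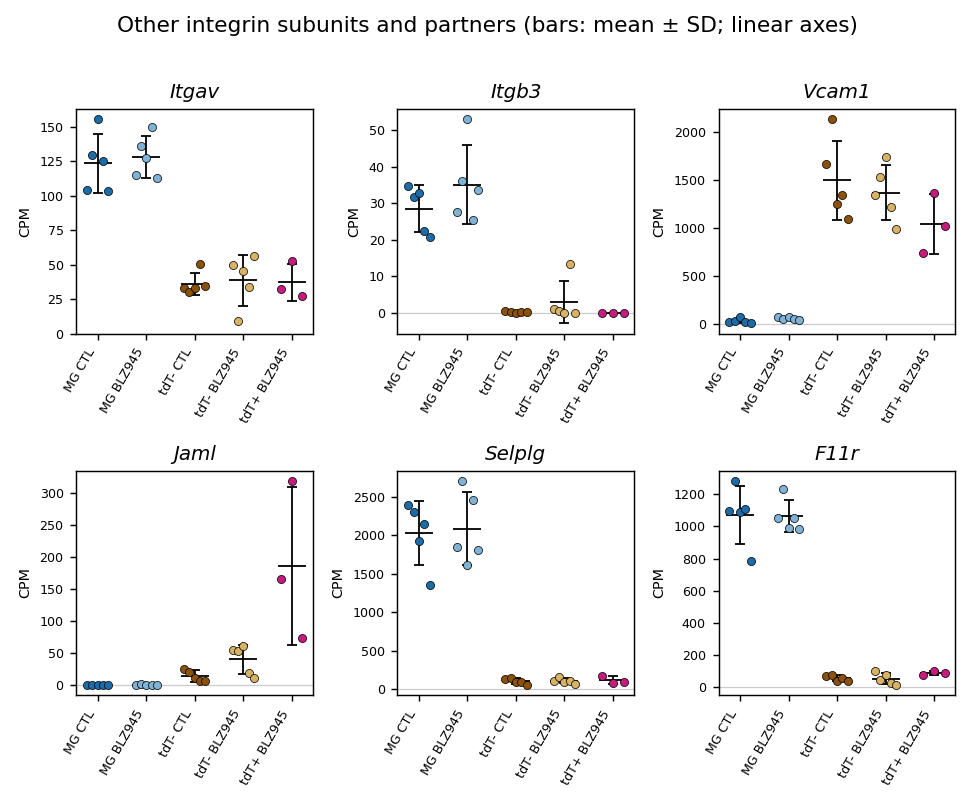
Level of 6 genes outside the 10 in every library, in CPM on linear axes, by group, where points are libraries and bars give the mean and SD. Itgav, Itgb3, Selplg and F11r lie higher in MG, Vcam1 and Jaml higher in sdCAMs, and Jaml reaches 319 CPM in a tdT+ library.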

How the data were processed

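Whole-number read counts per gene symbol were deposited by the authors, with no normalization. Per the labels, reads were demultiplexed with bcl2fastq 2.20, aligned with STAR 2.7.11a and counted with featureCounts 2.0.6, from SMART-Seq libraries of sorted cells. For its bulk libraries the study names GENCODE M36 and the builds mm10 or GRCm39, without saying which build served this table. Strand setting and treatment of multiply mapping reads were not given in the sources used here. The positions printed are those of GRCm38 (mm10), and read sharing with overlapping genes is uncertain.

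The 23 libraries were grouped by the labels (5 groups). The tests were run in edgeR 4.0.16 (R 4.3.3; TMM factors, filterByExpr, glmQLFit and glmQLFTest), with Benjamini-Hochberg adjustment over all genes tested and a threshold of 0.05. BLZ945 against CTL in MG was fitted on the 10 MG libraries, comparisons among sdCAMs on the 13 sdCAM libraries, tdT- sdCAMs against MG and the interaction on 20 libraries, and tdT+ sdCAMs against MG BLZ945 on 13 libraries. The 10 genes and the lists were chosen with earlier results of these data known. Every member is described. A listed gene is named where it was called with an average log2 CPM of at least 3, up to 3 rises and 3 falls per comparison, and genes outside this rule are marked.

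Alternatives were RLE size factors, DESeq2 1.42.0 (the tool of the study), no filter, at least 10 counts in every library, a model of all 23 libraries, a replicate block, each library left out and, added after the data were seen, no library of the BLZ945 pool M1. The animal or pool pairs libraries within a treatment, as the labels state. Deviations from group means correlated by 0.110 on average between MG and tdT- CTL, 0.0817 between MG and tdT- BLZ945, 0.0686 between tdT- and tdT+ BLZ945 and 0.131 between MG and tdT+ BLZ945. No library was a copy of another (lowest chi-square per gene for any pair of replicates, 15.7). 1 gene of the microglia marker list is not reported here. The scripts were tested on simulated data.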

Additional observations from a re-analysis of the deposited data

Results flagged for a closer look

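Of 39 sets of 5 libraries (a member within a group, without Itgax in tdT- CTL, which was at 0 throughout), 5 held a library far from the others by Dixon's criterion, where chance flags about 1 set in 20. Itgax stood at 9.75 CPM in F1 of tdT- BLZ945, and the next highest library of the group held 0.221 CPM. F1 of MG CTL held 162 CPM of Itga6, and the nearest other library held 232 CPM. F1 of MG BLZ945 was high for Itgam (367 CPM, nearest 301 CPM) and for Itga4 (1.82 CPM, nearest 0.530 CPM). M1 of MG CTL held 573 CPM of Itgb2 (nearest 523 CPM), which lay on the side of the MG BLZ945 group. What set these libraries apart was not tested.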

How the results depend on the processing

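Called members kept their direction and their call in 284 of 284 alternative values, and 8 values of uncalled members passed the threshold. The number of members called in MG BLZ945 against MG CTL was 1 with DESeq2 (Itgb2) and 0 otherwise. Itgam in tdT+ against MG BLZ945 passed with DESeq2 (-0.54, adjusted p = 0.0441), in the model of all 23 libraries (-0.58, adjusted p = 0.0203) and without the BLZ945 M1 libraries (-0.63, adjusted p = 0.0484), besides the replicate block and the loss of F3. The replicate block changed no other call than those of Itgam and Itgax given above. DESeq2 gave Itgax in CTL mice no p-value. A sign changed in 63 alternative values, all of uncalled members with a log2 difference of at most 0.63. Mean levels moved by 1 SD or more in 2 of 60 values (Itgb2 in MG, 560 CPM in CTL and 670 CPM in BLZ945 without TMM factors), and 6 of 10 members kept the order of all 5 group means without these factors.

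Numbers of genes called over the whole table depended more on the choice. For MG BLZ945 against CTL they were 46, with DESeq2 251, with no filter 193, with all libraries 12 and with a block by label 89. For tdT+ against tdT- BLZ945 they were 27, with DESeq2 179, with all libraries 82 and with the replicate block 6, and for tdT+ against tdT- CTL 37, 211 with DESeq2, 61 with no filter and 121 with all libraries. For the interaction they were 5, with DESeq2 100, with no filter 9, with at least 10 counts 0, with all libraries 1 and with the block 1, and for tdT- BLZ945 against CTL 0, 63 with DESeq2 and 29 with all libraries. The block moved the median of all genes to -0.18 for tdT- against MG BLZ945, to -0.15 for the interaction and to -0.10 for tdT- BLZ945 against CTL. Leaving out 1 library gave 22 to 102 calls in MG (most without MG CTL M2), 16 to 27 for tdT+ against tdT- BLZ945 and 21 to 44 against tdT- CTL (fewest without tdT+ F2 in both), and 0 to 36 for the interaction (most without tdT- BLZ945 F1). Depth limits Itgal, Itgax and, in MG, Itga4, whose counts were near 0 in part of the libraries.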
